A study of Homo sapiens with 12 samples.

Results

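GDF15, VEGFA, STC2, FGF19, INHBE, ADM2, EDN1, SOSTDC1, AREG and EREG encode hormones and growth factors that cells secrete. Their transcripts were followed in HT29 cells in which the endoplasmic reticulum (ER) was stressed with tunicamycin. The 10 genes were chosen as secreted factors that rise or fall with tunicamycin in these same libraries. Their tunicamycin responses are therefore given below as a description, with no test. The 10 genes are 10 of the 20015 genes in the count table. Of these 10, 9 had enough reads to be among the 11323 genes tested, and STC2 did not.

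HT29 is a human colorectal adenocarcinoma line, and the cells used here express the Cas9 nuclease. The QRICH1 KO cells carried a lentiviral guide RNA against QRICH1, and the WT cells carried a non-targeting guide, so all 4 groups share Cas9 and lentiviral transduction. The groups were QRICH1 KO with Tm, WT with Tm, QRICH1 KO with DMSO and WT with DMSO, with 3 libraries each, called biological replicates in the series design. Tm is tunicamycin at 0.3 µg/ml for 14 h. DMSO is its solvent. Whether the QRICH1 KO cells were a clone or a pool is not given in the labels. QRICH1, named in the series title as a regulator of the outcome of ER stress, was the gene tested.

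Tunicamycin blocks N-linked glycosylation, so that unfolded proteins collect in the ER and start the unfolded protein response. Among the branches of that response, the kinase PERK leads to translation of the transcription factor ATF4, and several secreted factors are known ATF4 targets, GDF15, FGF21 and STC2 among them. Secreted factors pass through the ER themselves, and most are glycosylated or held together by disulfide bonds, so a transcript level does not show how much protein leaves the cell. Only transcripts were measured here.

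The genes fall into 4 kinds by what their products do. GDF15, INHBE (the beta E subunit of activins) and SOSTDC1 act in or on the TGF-beta superfamily: the first 2 are ligands and SOSTDC1 binds and blocks BMPs and modulates WNT signalling. AREG (amphiregulin) and EREG (epiregulin) are ligands of the EGF receptor. VEGFA, EDN1 (endothelin-1) and ADM2 (adrenomedullin 2, also called intermedin) act on blood vessels. FGF19, an intestinal hormone that represses bile acid synthesis in the liver, and STC2 (stanniocalcin-2), an inhibitor of a protease that frees insulin-like growth factors, complete the set.

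AREG and EREG lie next to each other on chromosome 4 and were both higher with Tm in both genotypes, and GDF15 had the highest level per length of exon. Their promoters are shown here for that reason. Each window holds 250 bases before and 50 bases after the start of a RefSeq transcript, from GRCh38.p14, on the + strand. Capitals mark a match to one of 5 motifs searched on both strands.
AREG promoter window, chr4:74444886-74445185: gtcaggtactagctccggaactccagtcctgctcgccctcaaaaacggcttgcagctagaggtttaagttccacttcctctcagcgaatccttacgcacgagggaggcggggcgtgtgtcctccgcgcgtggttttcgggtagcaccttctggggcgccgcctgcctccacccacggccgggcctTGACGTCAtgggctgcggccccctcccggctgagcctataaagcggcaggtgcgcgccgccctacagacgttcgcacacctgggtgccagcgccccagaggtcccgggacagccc
EREG promoter window, chr4:74364895-74365194: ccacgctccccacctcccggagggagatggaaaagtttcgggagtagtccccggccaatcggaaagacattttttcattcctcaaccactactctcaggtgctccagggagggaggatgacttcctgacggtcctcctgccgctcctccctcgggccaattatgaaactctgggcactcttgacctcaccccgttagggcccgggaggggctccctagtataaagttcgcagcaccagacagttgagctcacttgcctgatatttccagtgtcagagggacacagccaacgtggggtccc
GDF15 promoter window, chr19:18385908-18386207: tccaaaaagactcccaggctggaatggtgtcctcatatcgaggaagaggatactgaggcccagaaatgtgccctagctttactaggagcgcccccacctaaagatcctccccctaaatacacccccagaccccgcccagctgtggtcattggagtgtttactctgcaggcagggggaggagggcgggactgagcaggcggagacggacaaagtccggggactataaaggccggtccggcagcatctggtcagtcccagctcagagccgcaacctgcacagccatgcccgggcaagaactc
The motifs were the C/EBP-ATF response element (TGATGNAA), the cAMP response element (TGACGTCA), the unfolded protein response element (TGACGTGG), the AP-1 site (TGANTCA) and the ER stress response element (CCAAT, any 9 bases, CCACG). RefSeq windows were found for 6 of the 10 genes, 8 windows in all (3 of them for EDN1, with ADM2, STC2 and the genes above having 1 each). The cAMP response element of AREG, TGACGTCA, 65 to 58 bases before the start, was the only match in the 8 windows. Among all 35116 windows, 1.85% held that element, 3.62% held TGATGNAA, 7.71% held TGANTCA, 0.729% held TGACGTGG and 0.0769% held the ER stress response element. A match describes letters and does not show that a factor binds there.

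Total counts ran between 6856736 and 17861844 per library, and 3 counts, the upper limit for a count of 0, equalled 0.168 to 0.438 CPM (counts per 1000000). Values below are CPM scaled with TMM factors, which correct library totals for composition. Errors are SD over the 3 libraries of a group. QRICH1 itself averaged 22.8 ± 3.84 CPM in QRICH1 KO Tm and 29.2 ± 3.04 CPM in WT Tm (n = 3 each), and 24.1 ± 0.714 CPM in QRICH1 KO DMSO and 29.6 ± 6.26 CPM in WT DMSO (n = 3 each), with adjusted p = 0.352 under Tm and adjusted p = 0.577 under DMSO. Loss of QRICH1 protein was not measured, and the transcript does not check the label. DDIT3, the stress-induced transcription factor CHOP, averaged 57.5 ± 7.16 CPM in QRICH1 KO Tm against 4.17 ± 0.89 CPM in QRICH1 KO DMSO, and 68.3 ± 8.99 CPM in WT Tm against 3.27 ± 0.38 CPM in WT DMSO. HSPA5 averaged 16460 ± 1340 CPM in QRICH1 KO Tm and 27850 ± 2630 CPM in WT Tm. In DMSO it averaged 1127 ± 65.8 CPM in QRICH1 KO and 1081 ± 116 CPM in WT. ATF4 averaged 611 ± 51.7 CPM in QRICH1 KO Tm and 702 ± 93 CPM in WT Tm. XBP1 averaged 88.1 ± 7.02 CPM in QRICH1 KO Tm and 82.4 ± 4.93 CPM in WT Tm. Of QRICH1, DDIT3, HSPA5, ATF4 and XBP1, 1 was called lower in QRICH1 KO than in WT under Tm, and 4 were not called. The QRICH1 KO libraries numbered 3 stood apart, with reads in 14813 genes in Tm and 15340 genes in DMSO, against 13124 to 14094 genes in the other 10 libraries, and the genotype differences of GDF15, SOSTDC1 and AREG are also given without them. The 10 epithelial markers summed to 61250 to 77250 CPM in QRICH1 KO Tm and 56890 to 73200 CPM in WT Tm. In DMSO they summed to 69910 to 90990 CPM in QRICH1 KO and 62040 to 95050 CPM in WT. Most of each sum was KRT8, with group means of 38900 to 51530 CPM, and KRT18, with 22780 to 29020 CPM. Group means were 1542 to 1801 CPM for EPCAM and between 49.38 and 474.2 CPM for CDH1, KRT20, VIL1 and LGALS4. The intestinal factor CDX1 had at most 1 count. In the 4 groups CDX2 averaged 0.602 to 0.777 CPM and CEACAM5 averaged 0.8705 to 2.009 CPM. The sum of 14 markers of immune, endothelial and stromal cells was 3.49 to 6.32 CPM in QRICH1 KO Tm, 2.85 to 3.13 CPM in WT Tm, 3.96 to 5.94 CPM in QRICH1 KO DMSO and 4.63 to 5.31 CPM in WT DMSO, with CD3E at 0 in every library. A lower level in such bulk RNA can come from fewer expressing cells or less RNA per cell, which cannot be told apart.

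In both genotypes, all 3 Tm libraries were above all 3 DMSO libraries for GDF15, VEGFA, INHBE, ADM2, AREG and EREG, 6 of 9 genes, and below them for EDN1, SOSTDC1 and FGF19, 3 of 9. Over all genes tested, 16.9% lay wholly above and 15.5% wholly below in QRICH1 KO, and 19.0% and 18.5% did so in WT. At an adjusted p under 0.05, calls with Tm took in 9.09% of all genes upward and 6.53% downward in QRICH1 KO, and 12.6% upward and 11.1% downward in WT. The genes were chosen on this response, so nothing is read from these counts.

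**Figure D1:**
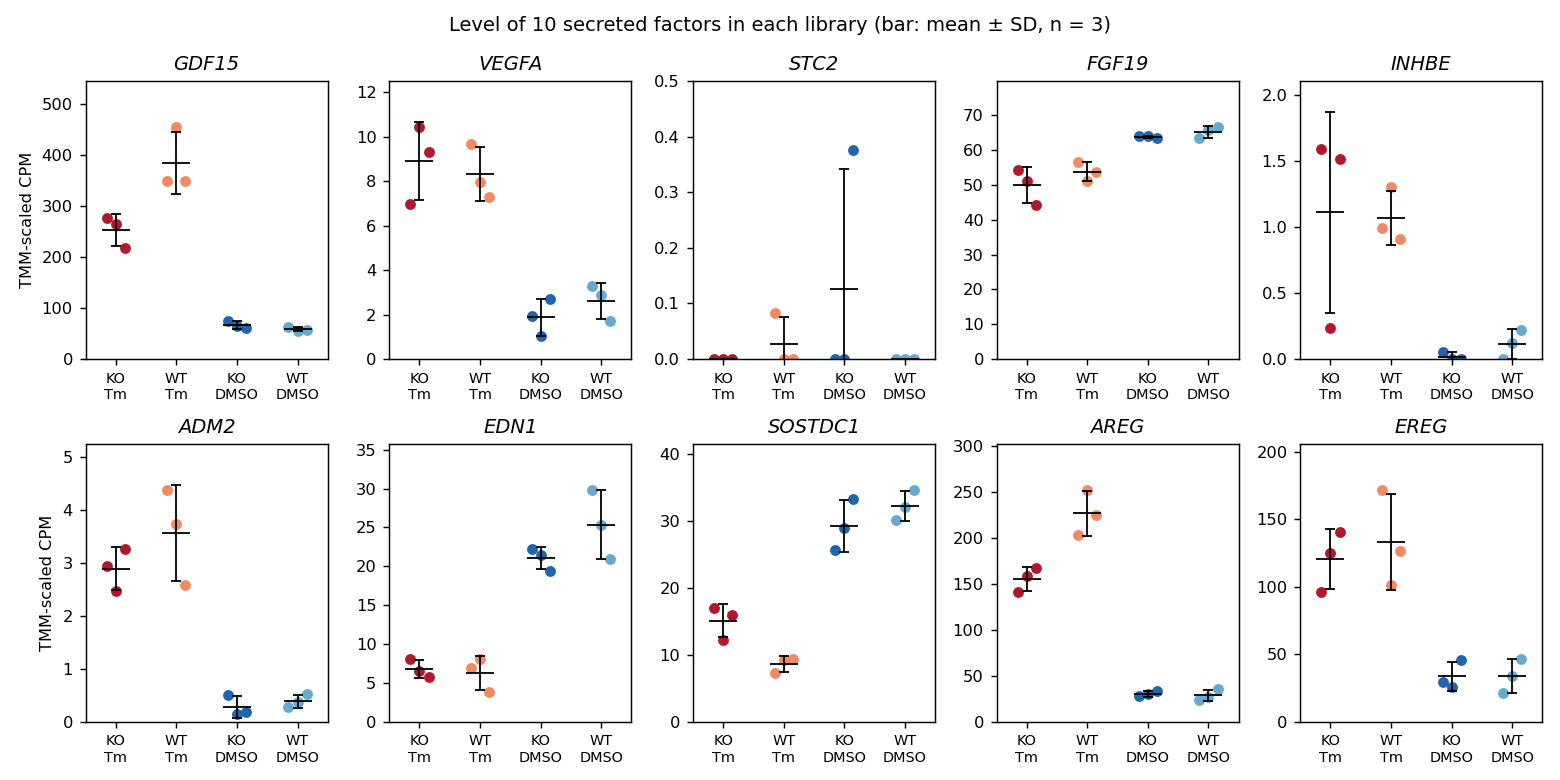
TMM-scaled CPM (y axis) of the 10 genes in each of the 12 libraries. Points are libraries in the order 1, 2, 3 within a group, and bars are the mean ± SD (n = 3). GDF15 and AREG were lower in QRICH1 KO Tm than in WT Tm with no overlap, SOSTDC1 was higher with no overlap, and STC2 had reads in only 2 libraries.

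GDF15 (ENSG00000130513.6, chr19:18374731-18389176, + strand, hg38) encodes a distant TGF-beta family hormone that reduces appetite through the brainstem receptor GFRAL. It had 277.5, 265.2 and 218.0 CPM in QRICH1 KO Tm, 348.7, 454.7 and 349.1 CPM in WT Tm, 74.4, 64.9 and 60.1 CPM in QRICH1 KO DMSO and 62.7, 55.2 and 56.7 CPM in WT DMSO. Every Tm library was above every DMSO library, the QRICH1 KO Tm libraries were all below the WT Tm libraries, and the DMSO groups overlapped. The Tm response was 1.93 on the log2 scale in QRICH1 KO (SE 0.134, 3.81-fold) and 2.73 in WT (SE 0.138, 6.61-fold). The microRNA gene MIR3189 lies inside GDF15 and was not analysed here.

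INHBE (ENSG00000139269.3, chr12:57452323-57459280, + strand) is a subunit of activins known mainly from liver. It had 20, 2 and 19 counts in QRICH1 KO Tm, 12, 16 and 6 counts in WT Tm, 1, 0 and 0 counts in QRICH1 KO DMSO and 0, 2 and 3 counts in WT DMSO. Tm libraries were above DMSO libraries in each genotype, and QRICH1 KO Tm library 2 was low beside its group. Summed over libraries and scaled to their totals, the ratio of Tm to DMSO was 58.5 in QRICH1 KO (41 counts against 1, 95% interval 9.93 to 2370) and 8.16 in WT (34 counts against 5, 95% interval 3.18 to 26.7). These intervals cover counting error only, and they overlap.

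SOSTDC1 (ENSG00000171243.8, chr7:16461481-16530580, - strand) encodes a secreted antagonist of BMPs, also called ectodin or wise. It had 17.1, 12.3 and 15.99 CPM in QRICH1 KO Tm, 7.26, 9.27 and 9.43 CPM in WT Tm, 25.7, 28.97 and 33.3 CPM in QRICH1 KO DMSO and 30.2, 32.1 and 34.7 CPM in WT DMSO. Every Tm library was below every DMSO library, and the QRICH1 KO Tm libraries lay between the WT Tm libraries and the DMSO libraries. The Tm response was -0.95 on the log2 scale in QRICH1 KO (SE 0.159, 1.93-fold lower with Tm) and -1.91 in WT (SE 0.17, 3.76-fold lower with Tm). The chemistry does not mark strand, and the protein-coding gene LRRC72, which overlaps SOSTDC1 on the other strand, had 0 counts in every library. The lincRNA AC005014.3 also overlaps SOSTDC1 on the other strand and was not analysed here, so reads of the 2 cannot be told apart.

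AREG (ENSG00000109321.11, chr4:74445134-74455009, + strand) encodes amphiregulin, an EGF receptor ligand made as a membrane protein and shed by the protease ADAM17. It had 140.9, 158.3 and 166.7 CPM in QRICH1 KO Tm, 202.8, 252.0 and 224.9 CPM in WT Tm, 27.7, 29.9 and 33.5 CPM in QRICH1 KO DMSO and 24.1, 27.0 and 35.1 CPM in WT DMSO. The QRICH1 KO Tm libraries were all below the WT Tm libraries, and the DMSO groups overlapped. The Tm response was 2.35 on the log2 scale in QRICH1 KO (SE 0.141, 5.11-fold) and 2.97 in WT (SE 0.145, 7.84-fold).

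EREG (ENSG00000124882.4, chr4:74365143-74388751, + strand) encodes epiregulin, which binds EGFR and ERBB4, and ends 56.4 kb before AREG begins. It had 96.2, 125.2 and 140.6 CPM in QRICH1 KO Tm, 171.7, 101.7 and 126.3 CPM in WT Tm, 29.7, 25.4 and 45.5 CPM in QRICH1 KO DMSO and 21.6, 34.2 and 46.7 CPM in WT DMSO. The 2 Tm groups overlapped, as did the 2 DMSO groups, and the spread within a group was wider than for AREG in all 4 groups. With Tm, EREG was higher by 1.85 on the log2 scale in QRICH1 KO (SE 0.251, 3.59-fold) and 1.95 in WT (SE 0.254, 3.86-fold).

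VEGFA (ENSG00000112715.21, chr6:43770184-43786487, + strand) encodes the main growth factor of blood vessels. It had 6.98, 10.42 and 9.31 CPM in QRICH1 KO Tm, 9.65, 7.97 and 7.30 CPM in WT Tm, 1.92, 1.04 and 2.69 CPM in QRICH1 KO DMSO and 3.27, 2.86 and 1.71 CPM in WT DMSO. Genotypes overlapped under both treatments. With Tm, VEGFA was higher by 2.22 on the log2 scale in QRICH1 KO (SE 0.312, 4.65-fold) and 1.70 in WT (SE 0.314, 3.25-fold). An antisense gene overlaps VEGFA, and without strand its reads cannot be told apart from those of VEGFA.

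ADM2 (ENSG00000128165.9, chr22:50481556-50486440, + strand) encodes a peptide of the calcitonin family that widens blood vessels. It had 37, 21 and 41 counts in QRICH1 KO Tm, 53, 46 and 17 counts in WT Tm, 9, 2 and 3 counts in QRICH1 KO DMSO and 2, 6 and 7 counts in WT DMSO. Scaled, this was 2.94, 2.46 and 3.26 CPM in QRICH1 KO Tm, 4.37, 3.74 and 2.58 CPM in WT Tm, 0.509, 0.139 and 0.188 CPM in QRICH1 KO DMSO and 0.272, 0.365 and 0.521 CPM in WT DMSO. Tm libraries were above DMSO libraries in each genotype, and genotypes overlapped. The ratio of summed, scaled counts in Tm to those in DMSO was 10.1 in QRICH1 KO (95% interval 5.74 to 19.1) and 9.28 in WT (95% interval 5.4 to 17.1), counting error only.

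EDN1 (ENSG00000078401.7, chr6:12290363-12297194, + strand) encodes endothelin-1, a peptide that constricts blood vessels and is cut from its precursor by ECE1. It had 8.01, 6.56 and 5.81 CPM in QRICH1 KO Tm, 6.93, 8.13 and 3.80 CPM in WT Tm, 22.2, 21.5 and 19.5 CPM in QRICH1 KO DMSO and 29.8, 25.3 and 21.0 CPM in WT DMSO. Of the 3 genes of this kind, EDN1 was the one with lower levels in Tm. With Tm, EDN1 differed by -1.63 on the log2 scale in QRICH1 KO (SE 0.215, 3.09-fold lower with Tm) and -1.96 in WT (SE 0.22, 3.89-fold lower with Tm).

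FGF19 (ENSG00000162344.4, chr11:69698232-69704642, - strand) had 54.3, 51.2 and 44.2 CPM in QRICH1 KO Tm, 56.6, 51.1 and 53.7 CPM in WT Tm, 64.1, 63.9 and 63.4 CPM in QRICH1 KO DMSO and 63.4, 65.8 and 66.5 CPM in WT DMSO. Its levels spread little within groups, and every Tm library was below every DMSO library. Its difference with Tm was small, -0.36 on the log2 scale in QRICH1 KO (SE 0.106, 1.28-fold lower with Tm) and -0.28 in WT (SE 0.107, 1.21-fold lower with Tm).

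STC2 (ENSG00000113739.10, chr5:173314713-173329503, - strand) had 0 counts in all 3 QRICH1 KO Tm libraries, 1, 0 and 0 counts in WT Tm, 0, 0 and 6 counts in QRICH1 KO DMSO and 0 counts in all 3 WT DMSO libraries. The 6 counts, 0.375 CPM, came from QRICH1 KO DMSO library 3, which stood apart by its number of genes with reads. A response of STC2 to Tm was not detectable at this depth, and the data do not show it as a stress-regulated transcript in these cells.

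**Figure D2:**
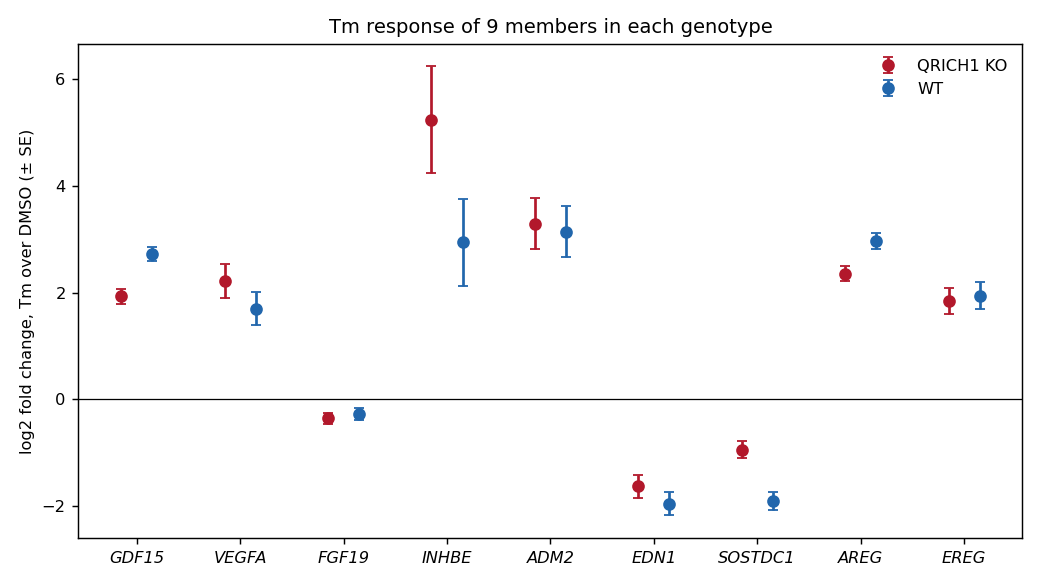
Tm response (y axis, log2 fold change of Tm over DMSO, ± SE) of the 9 tested genes, QRICH1 KO left of WT for each gene. GDF15 and AREG lie lower and SOSTDC1 lies nearer 0 in QRICH1 KO than in WT, and the INHBE values rest on 1 count in QRICH1 KO DMSO and 5 counts in WT DMSO.

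Levels of different genes were compared as CPM per kilobase of exon, using the union of all annotated exons. In QRICH1 KO Tm, GDF15 (122 ± 15.1) was highest, then AREG (94.2 ± 7.98), EREG (21.1 ± 3.94) and FGF19 (20.4 ± 2.1), then SOSTDC1 (6.11 ± 1.01) and EDN1 (3.34 ± 0.551), where each value is a mean CPM per kilobase ± SD (n = 3). In WT Tm the order began likewise with GDF15 (184 ± 29.3) and AREG (138 ± 14.9), in CPM per kilobase. Libraries of EREG and FGF19 overlapped in both Tm groups, and those of SOSTDC1 and EDN1 overlapped in WT Tm and not in QRICH1 KO Tm. In DMSO, FGF19 stood higher in the order, with 26.1 CPM per kilobase in QRICH1 KO and 26.7 in WT, next to GDF15 with 31.8 in QRICH1 KO and 27.9 in WT, and GDF15 and FGF19 overlapped in WT DMSO. ADM2, VEGFA and INHBE averaged under 1 CPM per kilobase in every group, and the neighbours ADM2 and VEGFA overlapped in all 4. The exon union of VEGFA is 14431 bases, longer than any of its transcripts, which lowers its value on this scale.

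**Figure D3:**
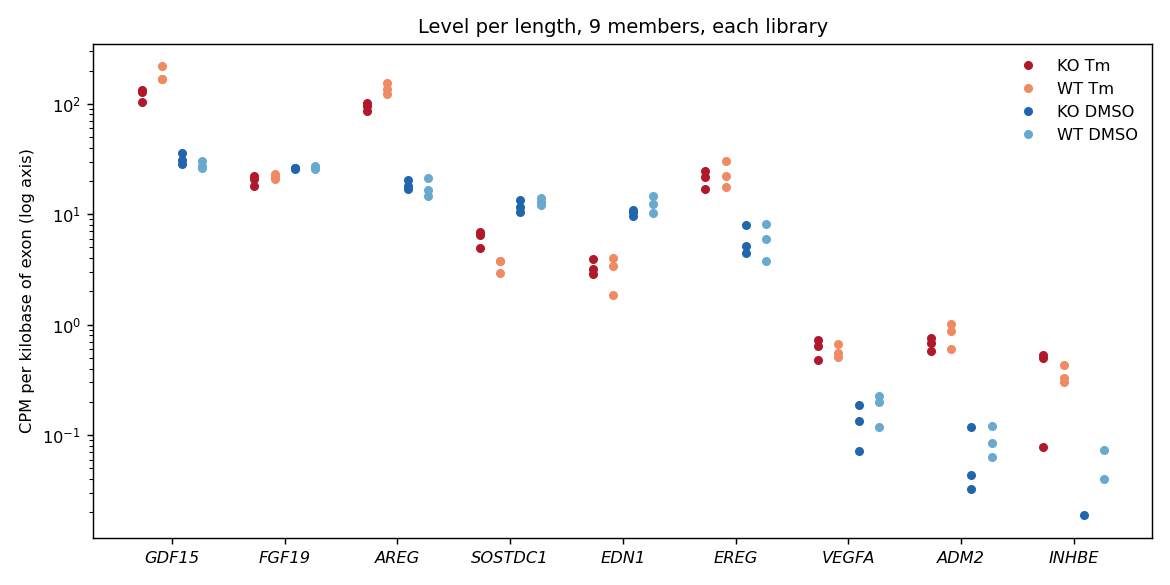
Level of 9 genes in each library in CPM per kilobase of exon (log y axis), with the 4 groups side by side for each gene. GDF15 and AREG were highest in both Tm groups, and GDF15 and FGF19 were highest in both DMSO groups; INHBE libraries with 0 counts, 2 in QRICH1 KO DMSO and 1 in WT DMSO, cannot be drawn on a log axis.

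Genotype played no part in how the genes were chosen as far as the rule states, so it was tested. The test under Tm uses the WT Tm libraries too. It is therefore not independent of a choice made on the Tm response in WT. Such a choice would favour risers that are lower in QRICH1 KO and fallers that are higher, the directions of GDF15, AREG and SOSTDC1. Under Tm, GDF15 was lower and SOSTDC1 higher in QRICH1 KO than in WT, and AREG missed the threshold. GDF15 averaged 253.6 ± 31.4 CPM in QRICH1 KO Tm and 384.1 ± 61.1 CPM in WT Tm (n = 3 each). The log2 fold change was -0.60 (SE 0.129, 95% interval -0.87 to -0.33), that is 1.52-fold lower, with adjusted p = 0.0263. SOSTDC1 averaged 15.1 ± 2.5 CPM in QRICH1 KO Tm and 8.65 ± 1.21 CPM in WT Tm, a log2 difference of 0.82 (SE 0.173, 95% interval 0.46 to 1.18), 1.77-fold higher, with adjusted p = 0.0241. AREG averaged 155.3 ± 13.2 CPM in QRICH1 KO Tm and 226.5 ± 24.6 CPM in WT Tm, a log2 difference of -0.55 (SE 0.133, 95% interval -0.82 to -0.27) with adjusted p = 0.0538. All 3 QRICH1 KO Tm libraries lay on 1 side of all 3 WT Tm libraries for these 3 of the 9 genes, against 18.5% of all genes tested. Over all genes tested, 0.406% were called higher and 0.760% lower, against 1 higher (SOSTDC1) and 1 lower (GDF15) of the 9. Adjusted p-values are from edgeR's quasi-likelihood test with Benjamini-Hochberg adjustment over all 11323 genes.

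Neither call held in all 17 alternatives. Without both QRICH1 KO libraries numbered 3, an alternative added after the data had been seen, neither GDF15 (log2 fold change -0.51, adjusted p = 0.0762) nor SOSTDC1 (0.78, adjusted p = 0.063) was called, and AREG had -0.61 (adjusted p = 0.0594). GDF15 also lost its call without QRICH1 KO Tm library 2 (adjusted p = 0.0958), QRICH1 KO Tm library 3 (adjusted p = 0.109) or WT Tm library 2 (adjusted p = 0.13), and SOSTDC1 without QRICH1 KO Tm library 1 (adjusted p = 0.109), QRICH1 KO Tm library 3 (adjusted p = 0.0757), WT Tm library 1 (adjusted p = 0.151), WT Tm library 2 (adjusted p = 0.0716) or WT Tm library 3 (adjusted p = 0.0514). Across all 17 alternatives GDF15 kept a log2 fold change between -0.69 and -0.46 and SOSTDC1 between 0.68 and 0.94, with adjusted p between 0.000386 and 0.13 for GDF15 and between 0.00224 and 0.151 for SOSTDC1. AREG was called in 7 of the 17, DESeq2 (adjusted p = 0.00681) and DESeq2's size factors in edgeR (adjusted p = 0.0466) among them, with a log2 fold change between -0.64 and -0.46 and adjusted p between 0.00319 and 0.206.

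The other 6 tested genes did not pass the test under Tm, and their QRICH1 KO and WT libraries overlapped. Log2 fold changes of QRICH1 KO over WT under Tm were -0.11 for FGF19 (95% interval -0.34 to 0.12), 0.07 for EDN1 (-0.42 to 0.56), -0.14 for EREG (-0.65 to 0.36), 0.09 for VEGFA (-0.51 to 0.685), -0.32 for ADM2 (-1.13 to 0.495) and 0.09 for INHBE (-1.20 to 1.39). Their adjusted p-values were between 0.731 and 0.97. The intervals of FGF19 (the narrowest), EDN1, EREG and VEGFA exclude a change of 0.82, the size seen for SOSTDC1, in either direction. That of ADM2 excludes such a change upward only, and that of INHBE excludes it in neither direction. The median log2 fold change of the 9 genes was -0.11, against 0.01 over all genes.

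**Figure D4:**
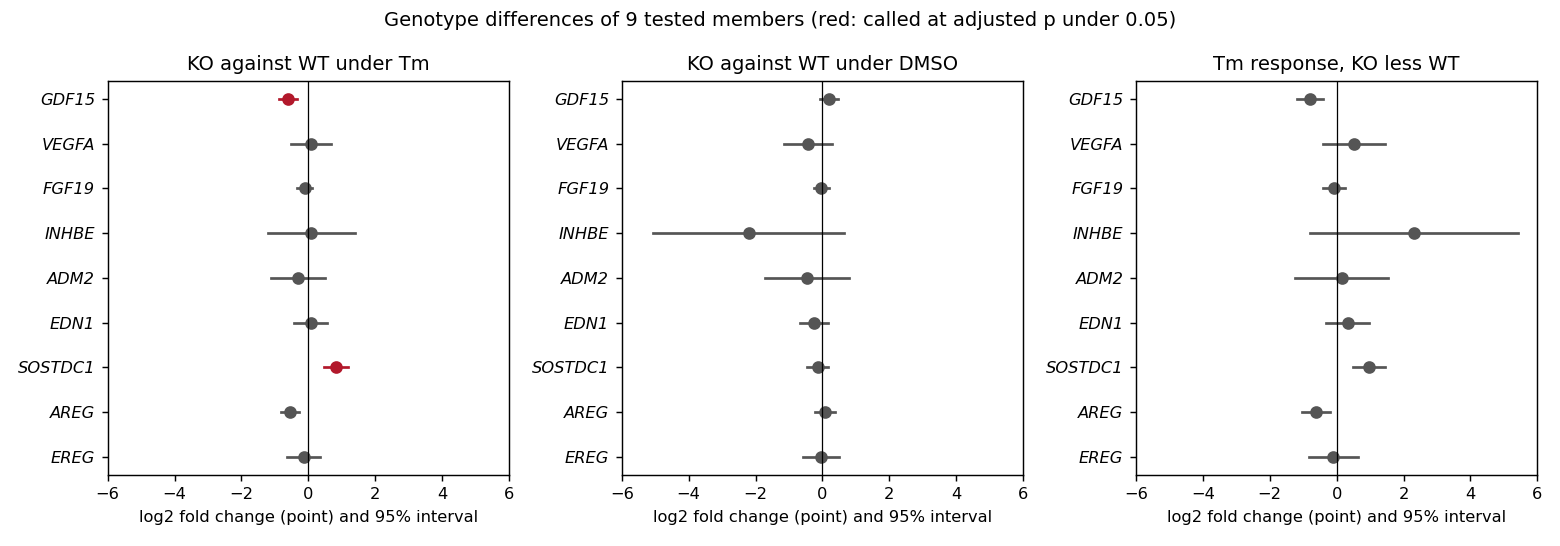
Log2 fold change with its 95% interval (x axis) of QRICH1 KO against WT under Tm, of QRICH1 KO against WT under DMSO, and of the Tm response in QRICH1 KO less that in WT, for 9 genes; red marks an adjusted p under 0.05. GDF15 (-0.60) and SOSTDC1 (0.82) under Tm are the only red points, and the wide INHBE intervals rest on 1 count in QRICH1 KO DMSO and 5 in WT DMSO.

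Without stress, none of the 9 genes was called between genotypes, and their libraries overlapped in each case. Of all genes tested, 0.0971% were called in this comparison and 13.5% did not overlap. GDF15 averaged 66.5 ± 7.29 CPM in QRICH1 KO DMSO and 58.2 ± 4 CPM in WT DMSO, a log2 difference of 0.19 (95% interval -0.08 to 0.47, adjusted p = 0.683). SOSTDC1 averaged 29.3 ± 3.85 CPM in QRICH1 KO DMSO and 32.3 ± 2.24 CPM in WT DMSO, a log2 difference of -0.14 (95% interval -0.47 to 0.18, adjusted p = 0.815). AREG averaged 30.4 ± 2.95 CPM in QRICH1 KO DMSO and 28.7 ± 5.71 CPM in WT DMSO, a log2 difference of 0.07 (95% interval -0.22 to 0.37, adjusted p = 0.903). The point estimates of these 3 genes had the opposite sign to those under Tm, with AREG changing sign in 3 of 17 alternatives. Without both QRICH1 KO libraries numbered 3 they were 0.25 for GDF15 (adjusted p = 0.408), -0.26 for SOSTDC1 (adjusted p = 0.512) and -0.0243 for AREG (adjusted p = 0.964). The remaining log2 fold changes were -0.03 for FGF19 (95% interval -0.26 to 0.19), -0.04 for EREG (-0.57 to 0.485), -0.26 for EDN1 (-0.68 to 0.16), -0.43 for VEGFA (-1.14 to 0.28) and -0.46 for ADM2 (-1.71 to 0.79). Their adjusted p-values were between 0.723 and 0.972. INHBE, with 1 count in QRICH1 KO DMSO and 5 in WT DMSO, allows no fold (adjusted p = 0.64).

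Whether the Tm response itself differed between genotypes was tested as an interaction, the Tm response in QRICH1 KO less that in WT. It was -0.79 on the log2 scale for GDF15 (SE 0.184, 95% interval -1.18 to -0.41, adjusted p = 0.206), 0.96 for SOSTDC1 (SE 0.231, 95% interval 0.48 to 1.45, adjusted p = 0.226) and -0.62 for AREG (SE 0.193, 95% interval -1.02 to -0.21, adjusted p = 0.411). None passed: edgeR called 0 of the 11323 genes (0.00%), with 774 genes, these 3 of the 9 among them, at an unadjusted p under 0.05. DESeq2 called 41 genes, of which GDF15 (adjusted p = 0.0146) was 1, and edgeR with no filter on low counts called 44, again with GDF15 (adjusted p = 0.00777), whose adjusted p ran between 0.00777 and 0.585 over the alternatives. Without both QRICH1 KO libraries numbered 3 the difference was -0.76 for GDF15 (adjusted p = 0.402), 1.04 for SOSTDC1 (adjusted p = 0.402) and -0.58 for AREG (adjusted p = 0.611). For the others the difference was 0.52 for VEGFA (95% interval -0.41 to 1.45), -0.08 for FGF19 (-0.39 to 0.24), 0.15 for ADM2 (-1.26 to 1.55), 0.33 for EDN1 (-0.31 to 0.97) and -0.10 for EREG (-0.83 to 0.63), with adjusted p between 0.871 and 0.989, and INHBE had adjusted p = 0.831. AREG and EREG, neighbours that were both higher with Tm, had intervals for this difference that overlap. With equal groups, the genotype tests are independent of the Tm effect averaged over both genotypes, but they are not independent of the Tm effect in WT alone, and which of these guided the choice of genes is not recorded.

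The genes whose levels over the 12 libraries were most like each of the 9 were found by Pearson correlation of log2 CPM, as a description over 12 libraries that fall into 4 groups. The 9 were chosen on their Tm response, so a high r can come from the split between Tm and DMSO alone. No shared regulation is read from it. GDF15 was closest to SSR4 (r = 0.999), PDIA6 and SARS1 (both r = 0.998): SSR4 is a subunit of the ER translocon-associated complex, PDIA6 an ER disulfide isomerase and SARS1 the cytosolic seryl-tRNA synthetase. AREG was closest to NUCB2 (r = 0.998), SEC61A1 and STT3A (both r = 0.997), where SEC61A1 forms the ER translocation channel and STT3A is a catalytic subunit of the oligosaccharyltransferase. EREG was closest to SLC38A2 (r = 0.985), an amino acid transporter, ZNF841 (r = 0.985) and CNIH1 (r = 0.984). SOSTDC1 was closest to CTDSPL (r = 0.982), ZNF488 (r = 0.975) and MTHFD1 (r = 0.974), EDN1 to TMEM109 (r = 0.973), ATP6V0E2 (r = 0.972) and PHLDB1 (r = 0.97), and FGF19 to KLHDC7A (r = 0.939), DMTN (r = 0.938) and PRSS23 (r = 0.923). ADM2 was closest to SGK3 (r = 0.987), TMEM258 (r = 0.981) and RPL36AL (r = 0.978), VEGFA to LZTFL1 (r = 0.975), EXOSC1 and ODR4 (both r = 0.96), and INHBE to BLZF1 (r = 0.954), COX7A2 (r = 0.949) and BORA (r = 0.943).

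Other ligands of the same families were mostly silent in HT29 cells. Of 25, only 7 were tested, 14 had at most 3 counts in any library and 5 of those had none at all. With Tm, 1 of the 7 rose in QRICH1 KO (HBEGF), 2 rose in WT (HBEGF and BTC), none fell, and the remaining ones did not pass the test. Of all genes tested, 9.09% rose in QRICH1 KO and 12.6% in WT. HBEGF, heparin-binding EGF-like growth factor, averaged 10.5 ± 2.94 CPM in QRICH1 KO Tm against 6.18 ± 0.582 CPM in QRICH1 KO DMSO (log2 fold change 0.76, SE 0.205, adjusted p = 0.0165), and 12.8 ± 0.736 CPM in WT Tm against 5.80 ± 0.395 CPM in WT DMSO (1.14, SE 0.211, adjusted p = 0.000569). In QRICH1 KO its call was lost without QRICH1 KO Tm library 1 (0.52, adjusted p = 0.115), QRICH1 KO DMSO library 2 (0.77, adjusted p = 0.0527) or QRICH1 KO DMSO library 3 (0.69, adjusted p = 0.0522). BTC, betacellulin, averaged 6.94 ± 3.51 CPM in WT Tm against 2.93 ± 0.639 CPM in WT DMSO (1.18, SE 0.351, adjusted p = 0.0203), and its call was lost without WT Tm library 3 (0.77, adjusted p = 0.138), WT DMSO library 1 (1.08, adjusted p = 0.061) or WT DMSO library 3 (1.10, adjusted p = 0.0659). HBEGF, BTC, AREG and EREG are all ligands of the EGF receptor family. So is TGFA, which was not called. It averaged 61.6 ± 8.45 CPM in QRICH1 KO Tm against 57.9 ± 12.2 CPM in QRICH1 KO DMSO (0.09, adjusted p = 0.744). In WT it averaged 61.2 ± 3.04 CPM with Tm against 66.8 ± 1.84 CPM with DMSO (-0.13, adjusted p = 0.58). EGF and EPGN, of the same family, had too few reads to be tested. The median log2 response of the 7 was 0.09 in QRICH1 KO and -0.11 in WT, against 0.00 in QRICH1 KO and -0.02 in WT over all genes.

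No receptor for these factors was called higher with Tm in either genotype, and some were called lower. Of 35 receptors and co-receptors, 17 were tested and 8 had at most 3 counts in any library, among them GFRAL, the GDF15 receptor, and KDR, the main VEGFA receptor. With Tm, 3 of the 17 fell and 14 did not pass in QRICH1 KO, and 8 fell and 9 did not pass in WT, while 6.53% of all genes tested were called lower in QRICH1 KO and 11.1% in WT. The log2 response was above 0 for 6 of the 17 in QRICH1 KO and for 3 in WT. The median log2 response was -0.27 in QRICH1 KO and -0.67 in WT, against 0.00 in QRICH1 KO and -0.02 in WT over all genes. ERBB3, which pairs with other EGF receptor family members, averaged 82.1 ± 10.1 CPM in QRICH1 KO Tm against 102.7 ± 14.2 CPM in QRICH1 KO DMSO (log2 fold change -0.32, adjusted p = 0.12), and fell to 65.8 ± 9.81 CPM in WT Tm, against 114.2 ± 9.44 CPM in WT DMSO (-0.79, SE 0.137, adjusted p = 0.000312). BMPR2, a receptor for BMPs, averaged 22.5 ± 1.15 CPM in QRICH1 KO Tm against 26.9 ± 1.79 CPM in QRICH1 KO DMSO (-0.26, adjusted p = 0.327), and fell to 19.9 ± 5.21 CPM in WT Tm, against 35.9 ± 5.34 CPM in WT DMSO (-0.85, SE 0.169, adjusted p = 0.00111). These calls of ERBB3 and BMPR2 in WT held in all 17 alternatives. TGFBR3, a co-receptor of TGF-beta ligands, averaged 1.29 ± 1.08 CPM in QRICH1 KO Tm against 4.01 ± 0.696 CPM in QRICH1 KO DMSO (-1.64, adjusted p = 0.0467) and 1.53 ± 0.416 CPM in WT Tm against 4.90 ± 3.09 CPM in WT DMSO (-1.66, SE 0.532, adjusted p = 0.0299). FGFR2 fell in WT, with 1.09 ± 0.869 CPM in WT Tm against 3.17 ± 0.566 CPM in WT DMSO (-1.40, SE 0.466, adjusted p = 0.0361). The calls of TGFBR3 and FGFR2 in WT were each lost in 4 of 17 alternatives, all of them with 1 WT library left out: TGFBR3 without Tm library 1, 2 or 3 or DMSO library 3 (adjusted p = 0.0774, 0.0596, 0.0964 and 0.214), where the last moved the value to -1.03, and FGFR2 without Tm library 1 or 3 or DMSO library 1 or 3 (adjusted p = 0.0875, 0.089, 0.0879 and 0.0806). In QRICH1 KO the call of TGFBR3 held in 8 of 17 alternatives, with log2 values between -2.51 and -1.08, and was lost without QRICH1 KO Tm library 1 or 2, WT Tm library 1, 2 or 3, QRICH1 KO DMSO library 1, 2 or 3, or WT DMSO library 2 (adjusted p up to 0.136).

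The other receptors that fell were picked out after their values were seen. ERBB2, the partner of other EGF receptor family members, averaged 24.4 ± 2.25 CPM in QRICH1 KO Tm against 40.2 ± 9.58 CPM in QRICH1 KO DMSO (log2 fold change -0.72, SE 0.149, adjusted p = 0.00266), and 22.1 ± 0.618 CPM in WT Tm against 31.2 ± 0.669 CPM in WT DMSO (-0.50, adjusted p = 0.022). FGFR4, the receptor that FGF19 uses in the liver, averaged 20.6 ± 2.74 CPM in QRICH1 KO Tm against 32.3 ± 2.7 CPM in QRICH1 KO DMSO (-0.65, SE 0.183, adjusted p = 0.0222), and 15.7 ± 4.35 CPM in WT Tm against 26.1 ± 5.06 CPM in WT DMSO (-0.74, adjusted p = 0.00786). The call of ERBB2 in QRICH1 KO held in all 17 alternatives, and in WT it was lost without Tm library 1 or 3 or DMSO library 2 or 3 (adjusted p up to 0.0768). The call of FGFR4 in QRICH1 KO was lost without Tm library 2 or 3, DMSO library 1 or 2, or both QRICH1 KO libraries numbered 3 (adjusted p up to 0.0996), and in WT without Tm library 1 (adjusted p = 0.0554). The 2 remaining ones, BMPR1A (-0.67, adjusted p = 0.0253) and LRP6 (-0.46, adjusted p = 0.0141), fell in WT. BMPR1A lost its call without WT Tm library 2 or WT DMSO library 2 or 3 (adjusted p up to 0.12), and LRP6 without WT Tm library 1 or WT DMSO library 1 (adjusted p up to 0.0626). EGFR itself, named outside the rules given below, was not called with Tm or between genotypes. It averaged 118.8 ± 3.8 CPM in QRICH1 KO Tm against 113.4 ± 11.9 CPM in QRICH1 KO DMSO. In WT it averaged 86.0 ± 13 CPM with Tm against 96.9 ± 6.06 CPM with DMSO. Between QRICH1 KO Tm and WT Tm the log2 difference was 0.47 (SE 0.12, adjusted p = 0.0691). These libraries did not overlap, as for 18.5% of all genes tested.

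**Figure D5:**
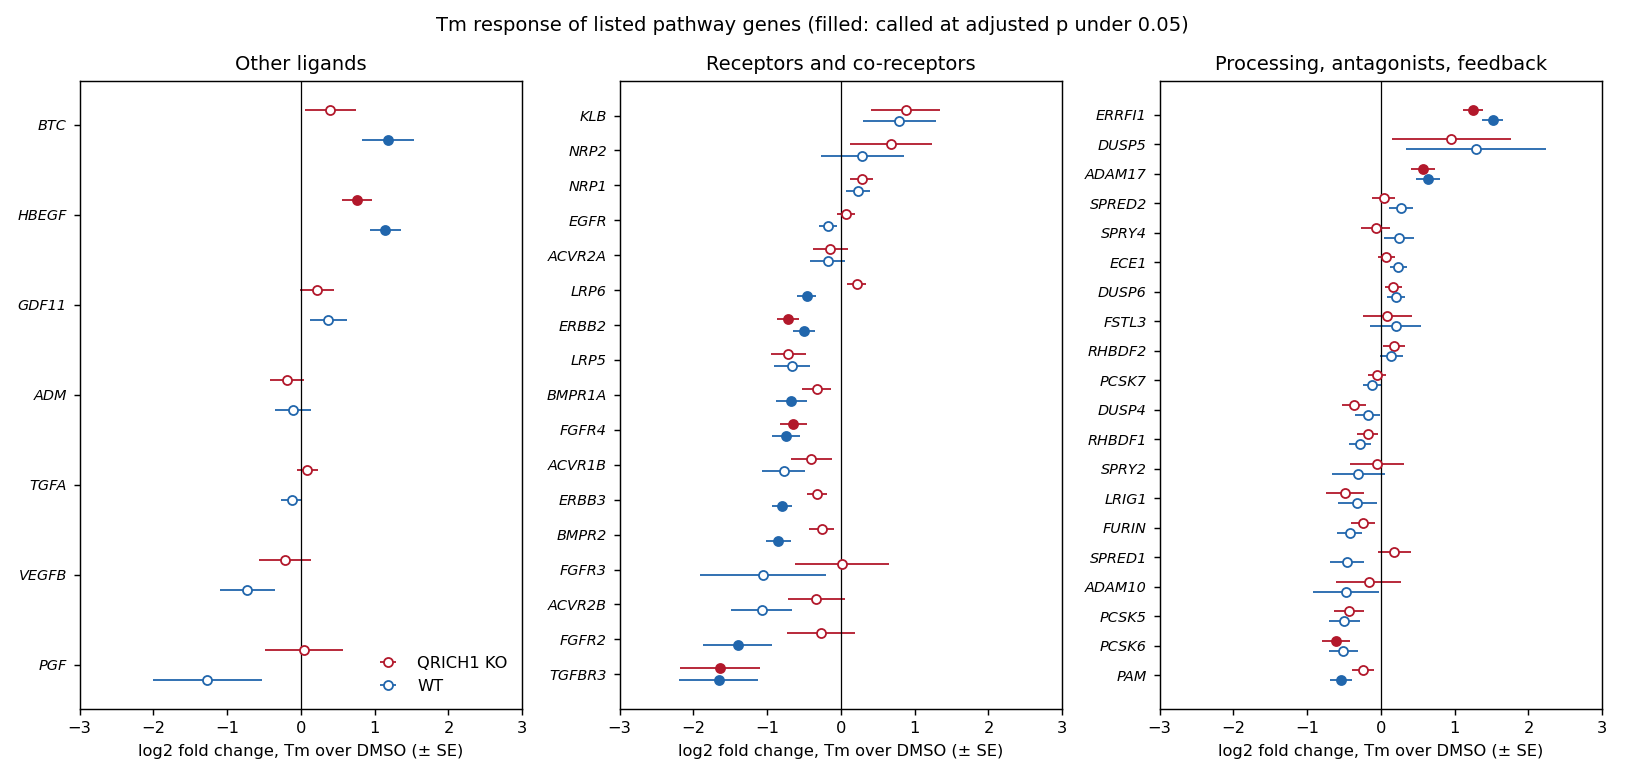
Tm response (x axis, log2 fold change of Tm over DMSO, ± SE) of the tested genes in the lists of other ligands, receptors and processing or feedback genes, QRICH1 KO above WT for each gene; filled points have an adjusted p under 0.05. HBEGF, ERRFI1 and ADAM17 are filled to the right of 0 in both genotypes, and no receptor is filled to the right.

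Among 26 processing enzymes, antagonists and feedback genes, 20 were tested. With Tm, 2 rose, 1 fell and 17 did not pass in each genotype. Of all genes tested, 9.09% rose and 6.53% fell in QRICH1 KO and 12.6% rose and 11.1% fell in WT. ERRFI1, a feedback inhibitor of the EGF receptor family also called MIG6, averaged 290.3 ± 24.1 CPM in QRICH1 KO Tm against 122.5 ± 25.6 CPM in QRICH1 KO DMSO (log2 fold change 1.24, SE 0.139, adjusted p = 3.59e-06), and 378.6 ± 23.2 CPM in WT Tm against 132.3 ± 17.1 CPM in WT DMSO (1.52, SE 0.14, adjusted p = 1.79e-07). ADAM17, which sheds AREG and other EGF receptor ligands, averaged 49.1 ± 5.52 CPM in QRICH1 KO Tm against 33.1 ± 5.96 CPM in QRICH1 KO DMSO (0.57, SE 0.159, adjusted p = 0.0207), and 57.6 ± 11.8 CPM in WT Tm against 36.9 ± 2.61 CPM in WT DMSO (0.64, SE 0.16, adjusted p = 0.00674). In QRICH1 KO the ADAM17 call was lost without Tm library 2 (adjusted p = 0.0653), Tm library 3 (adjusted p = 0.0843) or DMSO library 1 (adjusted p = 0.103). PAM, the enzyme that amidates peptides such as adrenomedullins, fell in WT (-0.54, SE 0.148, adjusted p = 0.0125), a call lost without WT Tm library 2 (-0.46, adjusted p = 0.0634). PCSK6, a proprotein convertase named after its value was seen, fell in QRICH1 KO (-0.61, adjusted p = 0.0348), a call lost without QRICH1 KO Tm library 2 or 3, QRICH1 KO DMSO library 1 or 2, or both QRICH1 KO libraries numbered 3 (adjusted p up to 0.126). The median log2 response of the 20 was -0.05 in QRICH1 KO and -0.15 in WT.

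Between genotypes, no gene of the 3 lists was called under Tm, under DMSO or in the interaction, so a gene past the threshold with Tm in only 1 genotype is not shown to respond differently. The median log2 fold change of QRICH1 KO over WT under Tm was 0.01 for the 7 ligands, 0.24 for the 17 receptors and 0.02 for the 20 processing genes, against 0.01 over all genes.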

How the data were processed

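The authors deposited 1 table of raw, whole-number read counts per gene for 12 libraries of 4 groups, which were taken from sample titles. Per the labels' protocols, RNA was copied by a modified Smart-seq2 method and libraries were made with Nextera XT, which neither marks strand nor adds molecular identifiers, so limits given from counts cover counting error only. Trimmomatic, STAR, DESeq2 and the build hg38 are named, without roles, per the submitters' processing notes; versions, counting tool, strand setting and annotation were not given in the sources used here. Of 20015 gene IDs, 19893 matched a symbol and 19972 matched GENCODE release 29, the source of positions and exon lengths; 19957 are protein coding.

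Counts were scaled with TMM factors (0.864 to 1.12), filtered with filterByExpr (minimum count 10) to 11323 genes, and fitted with edgeR 4.0.16 (R 4.3.3, quasi-likelihood, 4 group means, 12 libraries, common biological coefficient of variation 0.155). P-values are two-sided, Benjamini-Hochberg adjusted over these genes, and called under 0.05. The procedure was tested on simulated data. Log2 CPM used a prior count of 2. Libraries of a group differed beyond sampling noise (chi-square per degree of freedom 8.64 to 35.8 over genes with at least 50 counts), so none was a second sampling of the same library. Whether they came from separate cultures was not tested. Alternatives were DESeq2 1.42.0, its size factors in edgeR, no low-count filter, the replicate number as a block, each library left out, library totals without TMM, and, added after the data were seen, leaving out both QRICH1 KO libraries numbered 3.

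The 10 genes and the lists of ligands, receptors, processing genes and markers were chosen with earlier results of these data known. Named by rule were the 10 genes, listed genes called in a genotype comparison or the interaction (there were none), up to 4 per list with the largest log2 change among those called for Tm in WT at a mean of at least 1 CPM, and the 3 closest genes by correlation. Listed genes named outside these rules were ERBB2, FGFR4, BMPR1A, LRP6 and PCSK6, which were called with Tm, and TGFA and EGFR, which were not. EGF, EPGN, GFRAL and KDR were named as not tested. QRICH1, ATF4, DDIT3, XBP1, HSPA5 and the markers were named as context.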

Additional observations from a re-analysis of the deposited data

How the results depend on the processing

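Recomputed genotype differences and interactions of the 9 tested genes were counted as unchanged if they kept their direction and their side of the threshold. Tm responses were counted as unchanged if they kept their direction and moved by at most 1 SE, and their calls were not compared. By these rules 712 log2 fold changes were unchanged. Of the rest, 9 gained a call, 10 lost one (all with libraries left out) and 8 Tm responses moved by more than 1 SE. The remaining 26 changed sign, all 26 in differences that were not called. Genes called between QRICH1 KO and WT under Tm numbered 132, against 289 with DESeq2, 279 with no filter on low counts and 57 to 160 with 1 library left out, and members called numbered 2, against 0 to 3 with 1 library left out and 0 without both QRICH1 KO libraries numbered 3. Under DMSO 11 genes were called, against 58 with DESeq2, 138 with no filter, 5 to 32 with 1 library left out and 58 without both libraries numbered 3; no member was called in any of the 17 alternatives. The interaction had 0 genes called, against 41 with DESeq2 and 44 with no filter, with 1 member (GDF15) in each, and 0 to 4 with 1 library left out. Tm against DMSO in QRICH1 KO had 1768 genes called and 1120 to 1871 with 1 library left out. The replicate block called 161 genes under Tm, 3 members among them (AREG added, -0.55, adjusted p = 0.0163), 17 genes under DMSO and 0 in the interaction, and turned the sign of INHBE under Tm (-0.063). Deviations of same-numbered libraries from their group means correlated between -0.186 and 0.265 over 18 pairs, and 5 of the 12 libraries had their highest correlation with a library of their own number, the QRICH1 KO libraries numbered 3 with each other among them. Of the 18 pairs, 6 were over 0.1, and they were the pairs numbered 1 or 3 among QRICH1 KO Tm, QRICH1 KO DMSO and WT DMSO. WT Tm library 1 correlated between -0.186 and -0.139 with the libraries of its number. With the libraries numbered 3 of QRICH1 KO Tm, QRICH1 KO DMSO and WT DMSO it correlated at 0.159, 0.219 and 0.118. WT Tm library 2 correlated at 0.198, 0.226 and 0.164 with the libraries numbered 1 of the same groups. Libraries may thus share variation across groups under numbers that differ in WT Tm. A block other than by number was not tested. The numbers were therefore not taken to pair the samples in the main fit, and the block is given as an alternative. With 1 library left out, log2 differences of QRICH1 KO over WT that changed sign ran under Tm from -0.22 to 0.51 for INHBE, -0.15 to 0.28 for EDN1, -0.0358 to 0.24 for VEGFA and -0.31 to 0.0636 for EREG, and under DMSO from -0.34 to 0.24 for EREG and -0.0315 to 0.24 for AREG. The interaction ran from -0.39 to 0.19 for EREG, -0.14 to 0.0047 for FGF19 and -0.14 to 0.92 for ADM2. Without both libraries numbered 3 the sign also changed for INHBE under Tm (-0.16), for AREG under DMSO (-0.0243) and in the interaction for FGF19 (0.0092), ADM2 (-0.16) and EREG (0.0694). The cause was not tested. Library totals without TMM factors moved the mean of FGF19 to 50.3 CPM in WT Tm, 66.6 CPM in QRICH1 KO DMSO and 69.1 CPM in WT DMSO. Depth limits STC2 and INHBE most, with at most 6 counts of STC2 and 20 of INHBE in any library.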
